A study of Mus musculus with 7 samples.

Results

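Mature oligodendrocytes of the V-SVZ were taken by a gate on raw UMI counts, in which each UMI stands for 1 captured mRNA molecule. A cell entered the gate when it held at least 6 UMIs of Mog, Mag and Opalin together, at most 1 UMI of Enpp6 and Bmp4 together, at most 1 UMI of Dcx, and no UMI of Cldn5 or Csf1r. The gate took 2058 of the 43346 cells that passed quality control (4.75%, exact 95% binomial interval 4.55 to 4.95%). The members were thus chosen by measured values, and the 8 gate genes were never tested. In GRCm38, the build of the files, the gate's 3 myelin genes are the protein-coding genes Mog at chr17:37010743-37023398, Mag at chr7:30899176-30914873 and Opalin at chr19:41061710-41077113. Ermn (chr2:58045113-58052864), the fourth marker of these cells, took no part in the gate.

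Oligodendrocytes wrap axons of the central nervous system in myelin, a stack of compacted membrane that speeds conduction, and they supply those axons with metabolites. They arise from oligodendrocyte precursor cells (OPCs) through a newly formed stage that switches on Enpp6 and Bcas1, and then build the sheath with proteins such as Mbp, Mobp and Cnp. In the adult V-SVZ they lie beside the neural stem cells, in the neighbouring white matter and striatum, and some of them descend from those stem cells.

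The study compared mice that carry a floxed Prdm16 gene in all groups. The 3 control libraries were Prdm16 fl/fl without hGFAP-Cre, the 3 Prdm16 cKO libraries also carried hGFAP-Cre, which acts in radial glia and their progeny, and the single Prdm16-Vcam1 DKO library carried hGFAP-Cre with floxed Prdm16 and floxed Vcam1. Cre was absent from all controls, so its own effect cannot be told apart from that of the deletion, and progeny of cells that Cre did not reach can remain in the cKO. Each library pooled 2 to 3 mice aged 31 to 33 days, and the tissue was dissociated with papain and spun through a density gradient from which the myelin-rich upper layers were removed, a step whose effect on the yield of oligodendrocytes was not tested.

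The libraries held 45758003 to 141353017 UMIs, and 70.2 to 74.7% of the barcodes passed quality control except in cKO libraries 2 (49.8%) and 3 (47.2%). The file headers name Cell Ranger 6.0.1 for libraries 1 and 2 of control and of cKO, and 6.1.1 for the other 3. No member barcode was shared between libraries, while 2 to 70 barcodes of kept cells were shared per pair. Pairs of libraries of 1 group differed by more than sampling noise (chi-square per degree of freedom of the members' gene sums 5.23 to 23.2).

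Mature oligodendrocytes numbered 512, 153 and 402 in control libraries 1, 2 and 3, 477, 37 and 184 in cKO libraries 1, 2 and 3, and 293 in the DKO library. They were deep cells: their median was 8430.5, 19407 and 18514 UMIs in the control libraries, 12538, 31031 and 15264.5 in the cKO libraries and 20650 in the DKO library, against library medians of 4959.5 to 8317.5 UMIs over all kept cells. Their summed UMIs, which set the precision of every expression value given here, ran from 1103380 in cKO library 2 to 7671449 in control library 3. Control library 1 stood apart by its shallow members, holding 158 of the 252 members with fewer than 3000 UMIs, and cKO library 2 by its small number of cells. By their resemblance to simulated doublets, Scrublet marked 95 members (4.62%, against 2.41% of the whole set of kept cells), and no such member was removed.

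Oligodendrocyte identity, though not the mature stage, was checked with a gene outside the gate. Ermn, which encodes the cytoskeletal protein ermin of mature oligodendrocytes, had a UMI in 1950 members (94.8%) and in 25.6% of all other kept cells (18.2 to 30.7% per library), which include other oligodendrocytes and are shallower. The median member held 98.5 UMIs of the gate's 3 myelin genes, 1741 (84.6%) held at least 20, and 179 (8.70%) held fewer than 10. Just inside the threshold, 61 cells with 6 gate UMIs were members, and 55.7% of them had Ermn. Just outside it, 137 cells with 5 gate UMIs were left out, and 48.2% of them had Ermn. The cells on either side of the edge were shallow, with medians of 1686 UMIs inside and 1989 outside.

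Enpp6 removed more cells than the gate kept. Of 5566 cells with at least 6 UMIs of Mog, Mag and Opalin, 3199 failed the limit on Enpp6 and Bmp4, 345 failed on Dcx, 436 on Cldn5 and 111 on Csf1r, with some failing several. Of the 3199, 3182 (99.5%) held at least 2 UMIs of Enpp6, which encodes a choline phosphodiesterase of the oligodendrocyte lineage, and 155 held at least 2 of Bmp4. Their median was 123 gate UMIs, above that of the members. A comparison gate of Enpp6/Bmp4-positive cells, set for newly formed oligodendrocytes (at least 2 UMIs of Enpp6 and Bmp4 and at least 2 of Bcas1), took 2508 cells, of which 2340 (93.3%) also passed the 6-UMI threshold. It is called the Enpp6/Bmp4-positive gate here, since most of its cells also pass the myelin threshold.

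The most abundant mRNAs of the members included those of the myelin sheath. Levels of these genes are unscaled CPM, the UMIs of a gene divided by all UMIs of the members of a library and scaled to a total of 1000000. The levels of the lineage gates and of the genotype comparisons are CPM that were also scaled between libraries by TMM, unless called unscaled, so that their averages differ slightly. A UMI counts a 3′ end, so that CPM does not grow with gene length. Beside the nuclear RNA Malat1, the abundant genes included Mal, which encodes a raft protein of myelin (14688 CPM on average over the 7 libraries, 12258 to 16601), the iron store Fth1 (12282), Cnp, which keeps cytoplasmic channels in myelin open (7126), Ptgds, which makes prostaglandin D (6569.8), the tight junction gene Cldn11 (5918), Mbp (5549.8) and Mobp (3853). The rRNA-related transcript Gm42418 was also among the most abundant, and it ran from 1479 to 27358 CPM between libraries.

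Relative to all other kept cells, Ptgds had the largest ratio, with a log2 difference of 3.77 on average (3.39 to 4.09 over the 7 libraries). The gate gene Opalin followed at 3.32, then the adaptor Grb14 at 2.92, Lgi3 at 2.86, Mal at 2.84, the adhesion gene Mcam at 2.82, the tetraspanin Tspan2 at 2.81 and the actin-capping Tmod1 at 2.80. The comparison cells hold many other oligodendrocytes, and the members were picked on myelin RNA, so these ratios describe the gate and carry no test.

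Levels along the lineage gates showed which genes set the members apart from Enpp6/Bmp4-positive cells. Some myelin genes differed little. Mbp was at 5545 ± 624 CPM (SD, 7 libraries) in members, 5759 ± 744 in the Enpp6/Bmp4-positive gate and 222 ± 129 in OPCs, and Ermn in the same order at 1994, 2028 and 29.8. By contrast, Ptgds was at 6491 CPM in members (3923 to 11791) against 1918 in the Enpp6/Bmp4-positive gate, a log2 difference of 1.78. Il33, which encodes a nuclear alarmin cytokine, was at 83.8 against 26.3 CPM (log2 1.56) and Mal at 14742 against 9470.5 (log2 0.64). Each of these 3 genes was higher in the members in 7 of 7 libraries, as were Grb14, Mcam, Tspan2 and Lgi3.

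Several genes often read as marks of mature oligodendrocytes lay lower in the members than in the Enpp6/Bmp4-positive gate, also in 7 of 7 libraries. Klk6, which encodes a secreted protease, was at 1.29 against 84.0 CPM (log2 -5.33), the calcium-binding S100b at 34.7 against 527 (log2 -4.02) and Hopx at 1.77 against 18.6 (log2 -2.84). Log2 differences between gates were taken on CPM + 1, which shrinks them for genes of very low level. The nodal matrix gene Hapln2 stood at 52.5 against 271 CPM, the actin- and septin-binding Anln at 112 against 439.9, and the protease inhibitor Serpinb1a at 88.7 against 335. The lipid carrier Apod was at 1265 against 2597 CPM and transferrin, Trf, at 2729 against 4487. Markers of the newly formed stage were lower as well, with Tcf7l2 at 25.7 against 162 and Itpr2 at 9.59 against 128 CPM. Bcas1 was at 281 against 542 CPM, but the Enpp6/Bmp4-positive gate requires it, so that this difference follows in part from the choice of cells. The gates were set on the counts of these same cells, and the Enpp6/Bmp4-positive cells were deeper (median of 20655 against 14407.5 UMIs), so the differences between gates carry no test. The excluded cells held RNA of the newly formed stage and of late subtypes alike. The name mature oligodendrocytes therefore stands here only for the rule: Mog, Mag and Opalin present, Enpp6 near absent. It does not place the members at a later stage than the excluded cells. The OPC gene Pdgfra was at 2.76 CPM in members against 1694 in OPCs, whose gate requires it, so that this contrast also follows in part from the choice of cells.

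**Figure D1:**
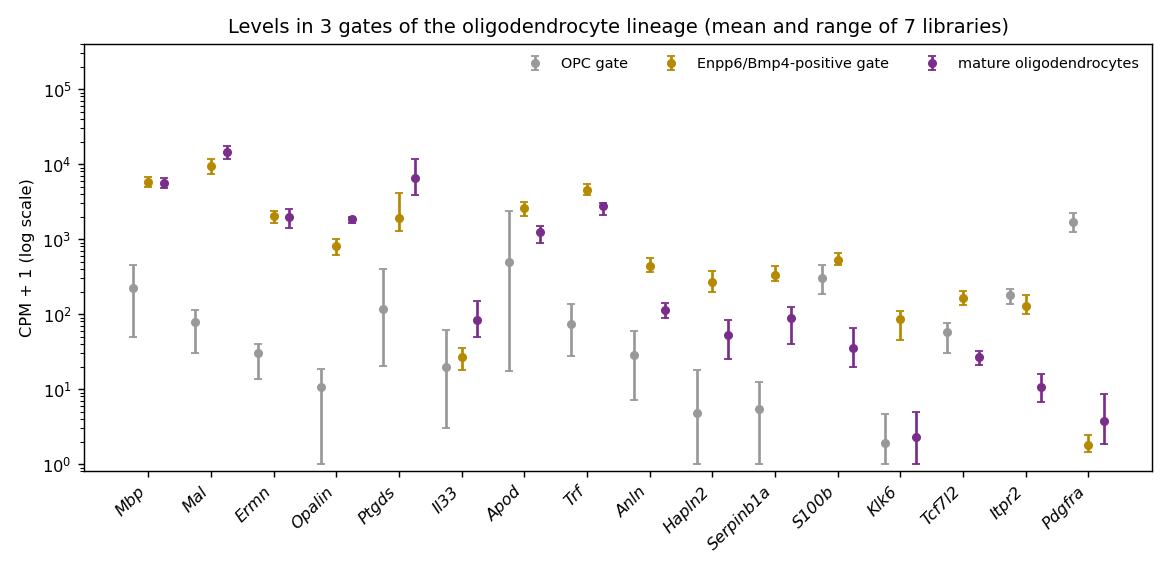
Levels of lineage genes in OPCs, the Enpp6/Bmp4-positive gate and mature oligodendrocytes, as CPM + 1 on a log axis, with points for the mean and bars for the range of the 7 libraries. Mbp was similar in the last 2 gates, Ptgds was higher in the members, and Klk6 and S100b were higher in the Enpp6/Bmp4-positive gate. Opalin is a gate gene, so that its level follows from the choice of members, and Pdgfra is required by the OPC gate.

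Variation among the members of a library was measured after each cell had been thinned to 2000 UMIs, which left out 113 members of control library 1 and 3 to 20 in each other library. Of 5764 genes, 152 had a variance over 1.5 times the mean, where independent sampling gives a ratio near the median of 1.00. Malat1 (156, the median over libraries) and the hemoglobin gene Hbb-bs (76.5, 0.941 to 719) varied most. Among oligodendrocyte genes, Ptgds (10.5, 7.53 to 17.2), Mal (7.84) and Fth1 (7.74) were among the most variable. Genes of astrocytes and neurons, such as Cst3 (20.0), Apoe (10.2), Slc1a2 (10.2) and Meg3 (10.2), varied on the same scale, and doublets and free RNA were not tested as their source.

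Ptgds divided members of the same library widely. At 2000 UMIs per cell, its median was 8, 22 and 6 UMIs in control libraries 1, 2 and 3, 17, 5.50 and 9 in cKO libraries 1, 2 and 3 and 8.50 in the DKO library. The gene was without a UMI in 10.0, 10.3 and 17.3% of control members, 2.97, 14.7 and 12.9% of cKO members and 15.6% of DKO members, while the highest cells held 41 to 84 UMIs. The tenth of members with the most Ptgds held 24.7 to 34.6% of its UMIs. Control library 2 and cKO library 1 were the high libraries, so the groups overlapped.

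Among subtype markers, also at 2000 UMIs, most members held a UMI of Ptgds, Apod or Car2, and few held one of Klk6 or Hopx. The levels of Klk6 and Hopx were higher in the Enpp6/Bmp4-positive gate, so their low shares describe the members and not all myelin-rich cells. Ptgds was found in 82.7 to 97.0% of members over the 7 libraries (median of 11.8% in endothelial-gated cells, taken as background), Apod, whose level was lower here than in the Enpp6/Bmp4-positive gate, in 74.2 to 83.0% (23.1%), and Car2, the carbonic anhydrase of oligodendrocytes, in 83.0 to 93.9% (32.9%). The glutamate receptor gene Grm3 was found in 8.19 to 11.8% (2.07%). The endothelial gate allows at most 1 UMI of Mog, Mag and Opalin together, so it leaves out endothelial cells with more oligodendrocyte RNA. The background may therefore be too low. Klk6 was seen in 0 to 2.13% and Hopx in 0 to 1.77% of members. For Hopx this was no more than the median of 2.22% in endothelial cells (0.625 to 4.62% per library), whose own expression of Hopx was not tested. Without thinning, Klk6 was seen in 0 to 4.78% and Ptgds in 87.5 to 98.3%. Of genes that rise in injured or inflamed white matter, Serpina3n was seen in 0 to 7.02% of members at 2000 UMIs (0 to 2.31% in endothelial cells) and in 1.02 to 17.4% without thinning, and C4b in 0.635 to 2.94% (0 to 1.27% in endothelial cells) and 3.52 to 6.54%.

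Il33 showed the widest gap between genotypes among these shares at 2000 UMIs. It was found in 12.3, 22.1 and 16.0% of members of control libraries 1, 2 and 3, in 16.1, 5.88 and 4.09% of cKO libraries 1, 2 and 3 and in 7.09% of the DKO library, with a median of 0.415% in endothelial cells. The means were 16.8 ± 4.94% (SD, n = 3) in control and 8.69 ± 6.48% (n = 3) in cKO, and the groups overlapped through cKO library 1 (exact two-sided permutation test, p = 0.3). Without thinning the shares were 24.0, 49.0 and 37.8% in control and 40.7, 37.8 and 26.6% in cKO libraries. The difference of -8.08 percentage points was -3.52 at 3000 UMIs per cell and -1.90 without thinning. At 2000 UMIs the 10 subtype shares had exact permutation p of 0.3 to 1 (Benjamini-Hochberg adjusted p of 1 for each), where 3 against 3 libraries cannot go below 0.1, so that no difference of any size could pass 0.05. At 3000 UMIs the difference of Apod was 6.38 percentage points, at the smallest p this design allows (exact permutation p = 0.1, n = 3), against 1.54 at 2000 UMIs.

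The first comparison asked whether loss of Prdm16 changed how many mature oligodendrocytes the tissue yielded. They made up 6.63, 3.23 and 4.23% of kept cells in control libraries 1, 2 and 3, 7.67, 1.98 and 2.87% in cKO libraries 1, 2 and 3, and 4.25% in the DKO library. The highest and the lowest share were both from cKO libraries, so that the control values lay inside the cKO range. The means were 4.70 ± 1.75% (SD, n = 3) and 4.17 ± 3.06% (n = 3), a difference of -0.52 percentage points that was smaller than the spread between libraries (exact two-sided permutation test, p = 0.7). Within Cell Ranger 6.0.1, the shares were 6.63 and 3.23% in control against 7.67 and 1.98% in cKO, and within 6.1.1 they were 4.23% against 2.87%. The difference turned positive when control library 1 (0.443), cKO library 2 (0.572) or cKO library 3 (0.129) was left out, and was -2.28 without cKO library 1 (exact permutation p = 0.2).

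Counted against other oligodendrocyte-lineage gates, the members made up 41.3 ± 7.89% (SD, n = 3) of gated lineage cells in control and 31.9 ± 12.9% (n = 3) in cKO, with 41.8% in DKO (exact permutation p = 0.4). Per Enpp6/Bmp4-positive cell there were 0.872 ± 0.313 members in control and 0.591 ± 0.354 in cKO (exact permutation p = 0.4, n = 3), and per OPC 4.41 ± 1.22 and 3.76 ± 1.78 (exact permutation p = 0.5, n = 3). Since the gate reads raw UMIs, deeper cells pass its lower bound and fail its Enpp6 limit more easily, and the median depth of members was 15450.5 ± 6096 UMIs in control and 19611 ± 9983 in cKO. With the myelin bound set per depth instead, at 8 UMIs of the 3 myelin genes per 10000, the shares were 9.41% in control and 7.87% in cKO (difference -1.53 points, exact permutation p = 0.6, n = 3). That gate took shallow cells, with median depths of 1110 to 2069 UMIs outside cKO library 1 (12027). Its other limits stayed in raw UMIs. With the Enpp6 and Bmp4 limit set per 10000 UMIs the difference was -0.47 (exact permutation p = 0.8, n = 3). It was -1.38 with a gate of at least 4 UMIs and -0.095 with one of at least 10. The mitochondrial share of members was 4.78 ± 0.388% in control and 5.29 ± 0.319% in cKO, and 3.78% in DKO. The highest control library (3) and the lowest cKO library (1) were both at 5.01%, so that the order of the groups rests on a tie at that precision (exact permutation p = 0.1, n = 3, the smallest p this design allows).

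**Figure D2:**
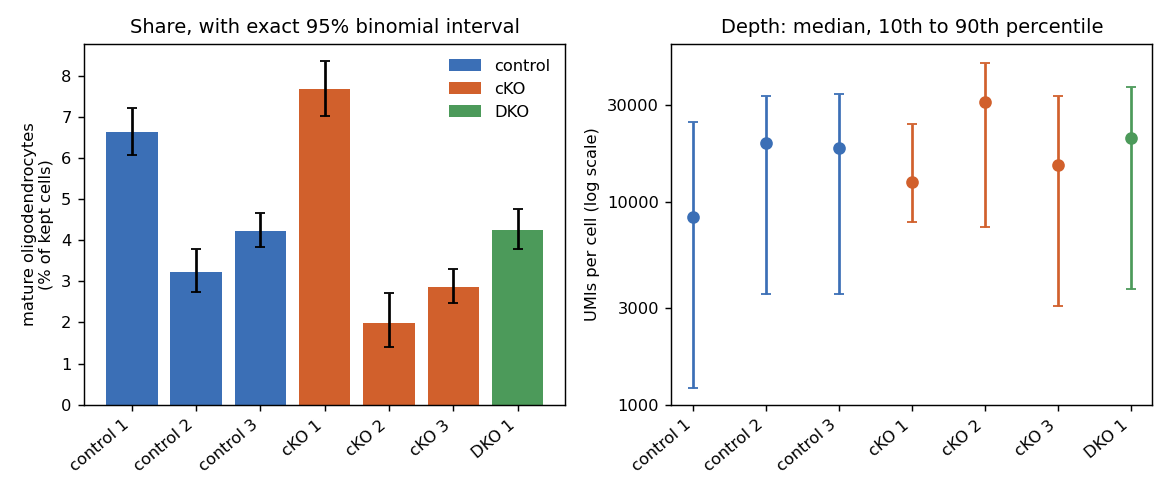
Left, mature oligodendrocytes as a percentage of kept cells in each library, with exact 95% binomial intervals. Right, the UMIs per mature oligodendrocyte on a log axis, from the 10th to the 90th percentile with the median; cKO library 2 held the fewest members (37) at the highest median depth (31031 UMIs).

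Prdm16, the transcriptional regulator that the study deletes (chr4:154316125-154636873), was nearly absent from the members of every group. Its raw counts were 13, 8 and 25 UMIs in control libraries 1, 2 and 3, 11, 2 and 6 in cKO libraries 1, 2 and 3, and 8 in the DKO library, which are 2.25, 2.55 and 3.31 CPM in control, 1.62, 1.88 and 1.97 in cKO and 1.38 in DKO. All 3 cKO values lay below the lowest control value, where 7.01% of all 13101 genes tested lacked overlap in either direction, and the log2 fold change of -0.60 ± 0.55 (SE) did not pass edgeR's quasi-likelihood test (adjusted p = 1.00). A UMI of Prdm16 was present in 2.54, 3.27 and 3.23% of control members and 1.68, 2.70 and 2.17% of cKO members (DKO 2.73%), and in 1.70, 0 and 1.48% and 0.820, 3.12 and 0% of microglia-gated cells, which should lack it (711 cells, median of 4503 UMIs against 14407.5 in members). In CPM without TMM scaling, the members held 2.33, 2.78, 3.26, 1.61, 1.81, 1.94 and 1.32 in the 7 libraries in the same order, the microglia 4.18, 0, 2.74, 1.87, 4.62, 0 and 0, and all other kept cells 21.8, 15.4, 17.4, 15.8, 15.4, 13.5 and 17.5. The microglia values rest on 0 to 3 cells with a UMI per library, too few to set the level in members apart from theirs. The 3′ tags may also lie outside the deleted part, so these counts do not check the deletion.

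Vcam1 (chr3:116109949-116129688), the adhesion gene removed in addition in the DKO, was also low. It had 34, 19 and 47 UMIs in control members, 48, 3 and 24 in cKO members and 12 in DKO members, or 5.88, 6.07 and 6.23, 7.07, 2.83 and 7.86 and 2.07 CPM. Control and cKO overlapped (log2 0.08 ± 0.37, edgeR adjusted p = 1.00). The DKO library had the lowest level of the 7, with no replicate to test it.

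Prm1 (chr16:10796326-10805839), a sperm protamine gene whose 3′ sequence is used in Cre transgenes, followed the genotype in these cells. Its UMIs numbered 0, 0 and 0 in control members, 22, 2 and 55 in cKO members and 28 in DKO members. Against the limit of 3 counts that 0 counts allow over the 16134390 control UMIs, the summed cKO level was at least 38.5-fold higher, a bound that covers counting error only. It was at least 16.3-fold without cKO library 3, 20.2-fold without control library 3, 25.2-fold without control library 1 and 73.0-fold without cKO library 1. A UMI of Prm1 was present in 4.19, 5.41 and 13.0% of cKO members and 6.14% of DKO members, and in 2.46, 3.12 and 9.71% and 5.38% of microglia-gated cells, which do not descend from radial glia. In unscaled CPM the cKO members held 3.22, 1.81 and 17.8, below the 18.7, 4.62 and 22.7 of microglia and the 43.7, 75.5 and 114 of all other kept cells. The microglia values rest on only 3, 1 and 10 cells with a UMI. Endothelial-gated cells held 10.8, 2.59 and 14.7, above the members in cKO libraries 1 and 2 and below them in cKO library 3. At those levels the signal in members cannot be told from free RNA in the droplets, and edgeR did not call it (adjusted p = 1.00). With the Cell Ranger version as a block edgeR called it (adjusted p 0.0147), as it did with no filter on low counts (adjusted p 3.84e-14), within a range over the alternatives up to 1.00.

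Agt and Thbs4, chosen after their values were seen, followed the genotype likewise. Agt, the angiotensinogen gene, which astrocytes express, had 9, 10 and 17 UMIs in control members, 76, 18 and 136 in cKO members and 33 in DKO members. Its level was 1.56, 3.19 and 2.25 CPM in control against 11.2, 17.0 and 44.5 in cKO, without overlap (log2 3.43 ± 0.62, edgeR adjusted p = 1.00). Without cKO library 3 the log2 was 2.56 (edgeR adjusted p = 0.109), and without cKO library 1 it was 3.85 and edgeR called it (adjusted p = 0.0449). DESeq2 called it as well (adjusted p 6.68e-07, where the alternatives ran from 1.42e-19 with no filter on low counts to 1.00). Microglia-gated cells held 4.18, 3.30 and 1.37 unscaled CPM in control and 33.7, 18.5 and 26.0 in cKO libraries, and all other kept cells 19.3, 13.9 and 17.6 in control and 72.1, 170.1 and 194 in cKO. In TMM-scaled CPM, the Enpp6/Bmp4-positive gate held 0.936, 1.93 and 1.18 in control and 9.29, 3.68 and 15.6 in cKO libraries, and the endothelial gate 1.09, 1.40 and 5.29 against 14.1, 6.13 and 19.1. In all 4 of these sets of cells, each cKO library lay above every control library. In OPCs, where Agt was too low to enter the test between genotypes, the levels were 3.25, 2.88 and 3.82 CPM in control and 2.09, 0 and 14.5 in cKO libraries, and edgeR's test of the difference in cKO effect between members and OPCs did not call it (adjusted p = 1.00). Thbs4, which encodes a matrix protein of neural stem cells, went the other way, with 67, 61 and 99 UMIs in control members, 33, 1 and 0 in cKO members and 27 in DKO members. The 0 of cKO library 3 allows a level of up to 0.970 CPM, and Thbs4 was not called by edgeR either (adjusted p = 1.00), though it was called with no filter on low counts (edgeR adjusted p 7.17e-05, where the other alternatives ran from 0.0849 to 1.00).

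**Figure D3:**
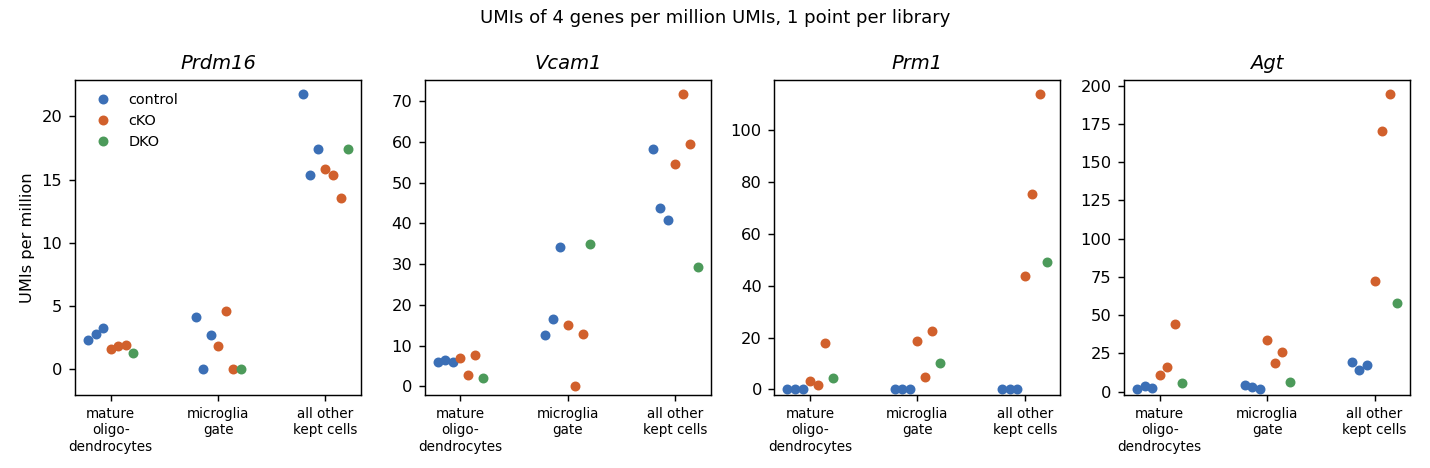
Unscaled CPM of Prdm16, Vcam1, Prm1 and Agt in mature oligodendrocytes, with 1 point per library, beside microglia-gated cells and all other kept cells. Prdm16 and Prm1 were lower in members than in the other kept cells, and Prm1 was 0 in the members of each control library.

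The main comparison asked which genes changed in mature oligodendrocytes when Prdm16 was deleted. UMIs were summed over the members of each library, scaled by TMM, and cKO was set against control for 13101 genes. edgeR called 0 genes at an adjusted p under 0.05 (0% of those tested), while 186 (1.42%) had an unadjusted p under 0.05 and DESeq2 called 1, Agt. With no change at all, a share near 0.05 of the genes is expected under that limit, so the test may have been conservative here. The lack of calls therefore does not show that no gene changed. Of the 13101 genes, 51.8% had a higher level in cKO by fold change, with a median log2 fold change of 0.01, and 7.01% did not overlap between the 3 control and the 3 cKO libraries (430 above and 488 below). Abundant genes were measured closely: among 4511 genes whose mean log2 CPM was 5 or more, the median SE was 0.17 and 4470 (99.1%) had a fold change within 0.5 of 0 on the log2 scale. The largest fold change among them, 2.53, belonged to the hemoglobin gene Hba-a1. It rested on cKO library 3, and was 0.32 without that library and -0.63 with equal numbers of members. With members of at most 2 hemoglobin UMIs it was 0.12, but that limit caps the counts of Hba-a1 itself, so this value is no check. Nothing in the labels gives the mice behind each pool, so p-values measure the spread between these pooled libraries.

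**Figure D4:**
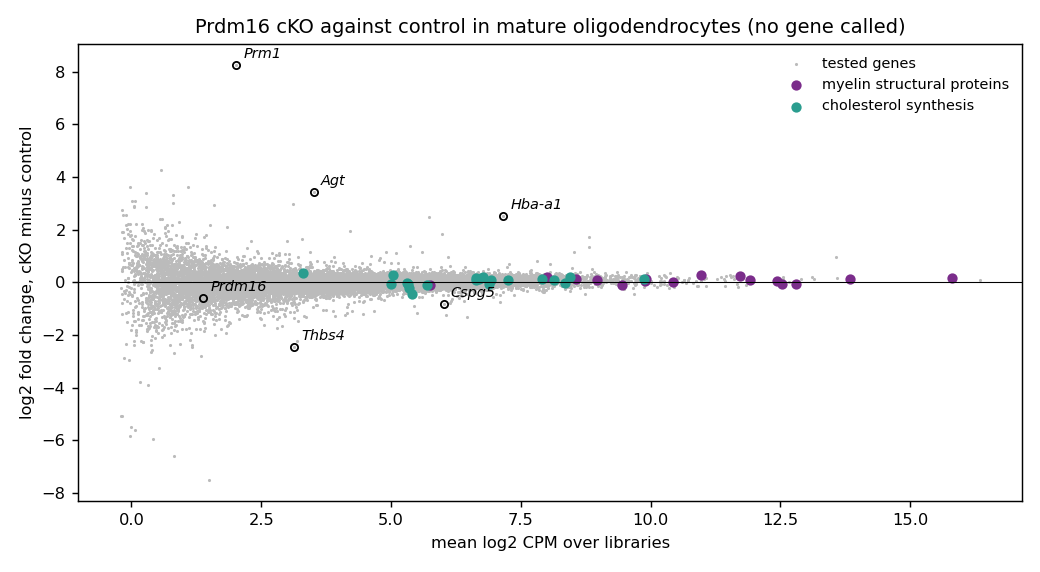
Log2 fold change of cKO over control against the mean log2 CPM in mature oligodendrocytes, with 1 point per tested gene and 0 genes called by edgeR. Most abundant genes lie near 0, with the rRNA-related Gm42418 (log2 0.95) as an exception. The plotted value of Prm1 depends on the fit's prior count, since its control counts were 0.

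No gene of the myelin sheath was called among 16 tested, and their log2 fold changes ran from -0.12 to 0.26. Mal was at 11846, 12758 and 16533 CPM in control libraries 1, 2 and 3, 14584, 17255 and 13442 in cKO libraries 1, 2 and 3 and 16778 in DKO, with overlapping groups (log2 0.14 ± 0.18, SE). Ermn was at 1756, 1405 and 2049 CPM in control, 2157, 2379 and 1724 in cKO and 2486 in DKO (log2 0.26 ± 0.19). Cnp (log2 -0.06 ± 0.17), Tspan2 (0.25 ± 0.18) and Omg, an axon growth inhibitor of the sheath (0.18 ± 0.16), overlapped as well. Of the 16, 11 were higher and 5 lower by fold change, none without overlap, with a median log2 of 0.09 against 0.01 over all genes.

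Lipid synthesis for the sheath was likewise without a called gene. Of 16 genes of myelin sphingolipids and fatty acids, 7 were higher and 9 lower (median log2 -0.02). Ugt8a, which makes the galactolipid of myelin, was at 1415, 1016 and 1499 CPM in control and 1320.2, 1632 and 1617 in cKO (log2 0.22 ± 0.19), the fatty acid hydroxylase Fa2h had a log2 of 0.19 ± 0.18 and the ceramide synthase Cers2 one of -0.26 ± 0.18. Sptlc2, of the first step of sphingolipid synthesis, was the 1 gene of this list without overlap, beside 7.01% of all genes tested (50.0, 52.4 and 48.6 against 56.7, 61.2 and 54.7 CPM, log2 0.19 ± 0.15). Of 20 cholesterol synthesis genes, 12 were higher and 8 lower (median log2 0.08). Hmgcs1, which encodes the HMG-CoA synthase, was at 1182, 571 and 936 CPM in control and 925, 1066 and 962 in cKO, with a log2 of 0.13 ± 0.23, and Cyp51 (0.19 ± 0.20), Msmo1 (-0.01 ± 0.17) and Lss (0.29 ± 0.21) overlapped too. The mevalonate kinase gene Mvk alone had an unadjusted p under 0.05: it was at 44.6, 47.3 and 54.6 CPM in control, 33.7, 31.1 and 40.6 in cKO and 39.3 in DKO, without overlap (log2 -0.46 ± 0.17, edgeR adjusted p = 1.00).

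Transcription factors of the lineage were balanced, 6 higher and 6 lower of 12, with a median log2 of 0.00 that turned sign in 6 of 21 alternatives, among them another set of library totals. Olig1 was at 1497, 1032 and 982 CPM in control and 1089, 1085 and 961 in cKO (log2 -0.16 ± 0.19), and Myrf, which drives the myelin genes, at 239, 232 and 254 and 241, 319 and 296 (log2 0.24 ± 0.17). The repressor gene Zeb2 (0.12 ± 0.20) and the homeobox gene Nkx6-2 (0.03 ± 0.16) had small differences. Among 11 genes of adhesion between axon and glia, 8 were higher and 3 lower (median 0.08). Their most abundant member Nfasc, which anchors the paranodal loops, was at 1342, 624 and 1015 against 887, 1018 and 1034 CPM (log2 -0.02 ± 0.24). Ninj2 was the 1 gene of the 11 without overlap, beside 7.01% of all genes tested, at 86.0, 83.3 and 87.6 against 114, 96.1 and 99.6 CPM (log2 0.28 ± 0.15, edgeR adjusted p = 1.00).

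The functions that let oligodendrocytes feed axons and buffer ions gave 5 higher and 5 lower genes of 10 channels, gap junction proteins and transporters (median log2 0.03). The potassium channel gene Kcnj10 had a log2 of 0.22 ± 0.20, the gap junction gene Gjc3 had 0.15 ± 0.18, and the lactate transporter Slc16a1 had -0.17 ± 0.18, from 132, 88.1 and 97.0 CPM in control and 97.8, 87.6 and 96.3 in cKO. For iron handling and carbonic anhydrases, 5 of 6 were higher (median 0.12), with Fth1 at 0.18 ± 0.17, Trf at 0.11 ± 0.18 and the transferrin receptor Tfrc at 0.33 ± 0.21. Of 15 cytoskeletal genes of myelinating processes, 8 were higher and 7 lower (median 0.03), with Cryab at 0.21 ± 0.17, Stmn1 at 0.15 ± 0.19 and Gsn at -0.16 ± 0.16. No gene of these 3 lists was called or had an unadjusted p under 0.05.

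Subtype and state genes showed no called change either. Of 10 late mature markers, 9 were higher by fold change (median log2 0.12) and Il33 was the exception, at 87.2, 148 and 100.2 CPM in control, 97.7, 54.6 and 48.5 in cKO and 50.8 in DKO. Control library 2 was the high library and cKO library 1 lay within the control range (log2 -0.70 ± 0.30, edgeR adjusted p = 1.00). Ptgds was at 4243, 11791 and 3923 CPM in control, 8171, 5241 and 6562 in cKO and 5509 in DKO, so that its largest and smallest values were both from controls (log2 0.00 ± 0.48). All 5 markers of the Klk6-type mature state were lower by fold change, with a median of -0.20, which turned positive without cKO library 2. Klk6 and Hopx held only 0 to 13 UMIs in each control or cKO library, while Serpinb1a was at 100.3, 125 and 86.2 against 115, 38.6 and 96.9 CPM (log2 -0.25 ± 0.35). The 7 myelin-forming markers had a median of -0.01, 3 higher and 4 lower.

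Of 10 tested genes known from oligodendrocytes in disease models, 8 were higher (median 0.11), but Serpina3n, at 3.46, 8.62 and 4.77 against 5.30, 2.83 and 16.4 CPM, rested on cKO library 3 and was not called (log2 0.67 ± 0.57). Ifi27l2a, an interferon-induced gene, was at 3.11, 0.319 and 1.19 CPM in control and 0 in each cKO library, the 1 gene of the 10 without overlap, beside 7.01% of all genes tested. It was 1 of 2 genes of the list with an unadjusted p under 0.05 beside Il33, and neither was called (edgeR adjusted p = 1.00 for Ifi27l2a). The lowest control value of Ifi27l2a lay near 0, and cKO library 2 summed only 1103380 UMIs, so its lack of overlap rests on few counts. Immediate early genes, which dissociation can induce, were 7 higher and 10 lower (median -0.05), with Jun at 581, 489 and 426 against 445, 382 and 669.8 CPM (log2 0.00 ± 0.22). Heat shock genes were 10 higher and 2 lower, with a median of 0.20 that ranged from 0.10 to 0.28 over the alternatives. Hsph1 was at 166, 82.1 and 109 against 163, 267 and 110.4 CPM (log2 0.57 ± 0.38) and Hspe1 at 137, 183 and 185 against 168, 304 and 206 (log2 0.41 ± 0.22), both with overlap, and no gene of the list was called.

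Energy metabolism and translation genes leaned to higher values in cKO, and for the nuclear-encoded lists the lean was lost without control library 1. Of 76 nuclear genes of oxidative phosphorylation, 64 were higher and 12 lower in cKO (median log2 0.17), 12 of 13 mitochondrially encoded genes were higher (0.20), and 68 of 72 cytosolic ribosomal protein genes were higher (0.13), against 51.8% of all genes. No gene of the 3 lists was called or had an unadjusted p under 0.05. Of the oxidative phosphorylation list, the 2 genes without overlap ran against this lean, beside 7.01% of all genes tested. Sdha, of complex II, was at 127, 137 and 125 CPM in control and 123, 119 and 113 in cKO (log2 -0.13 ± 0.15), and Cyc1, of complex III, at 102, 128 and 102 and 102, 93.3 and 97.6 (log2 -0.17 ± 0.16). The mean log2 level of the oxidative phosphorylation list was 7.08, 7.68 and 7.72 in control libraries 1, 2 and 3, 7.41, 7.73 and 7.83 in cKO libraries 1, 2 and 3 and 7.75 in DKO. That of the ribosomal list was 8.12, 8.80 and 8.87 in control, 8.53, 8.84 and 8.92 in cKO and 8.91 in DKO. In both lists, the first library of each group was the low one, and control library 1 was lower than cKO library 1. Without control library 1 the medians turned to -0.03 and -0.07, and without control library 3 they were 0.30 and 0.29. Cox4i1, of complex IV, was at 550.3, 763 and 782 against 768, 776 and 881 CPM (log2 0.21 ± 0.18), and Rps29 at 571, 901 and 1063 against 899, 1226 and 1145 (log2 0.37 ± 0.23). The part of the shallow members of control library 1 in these lists was not tested.

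**Figure D5:**
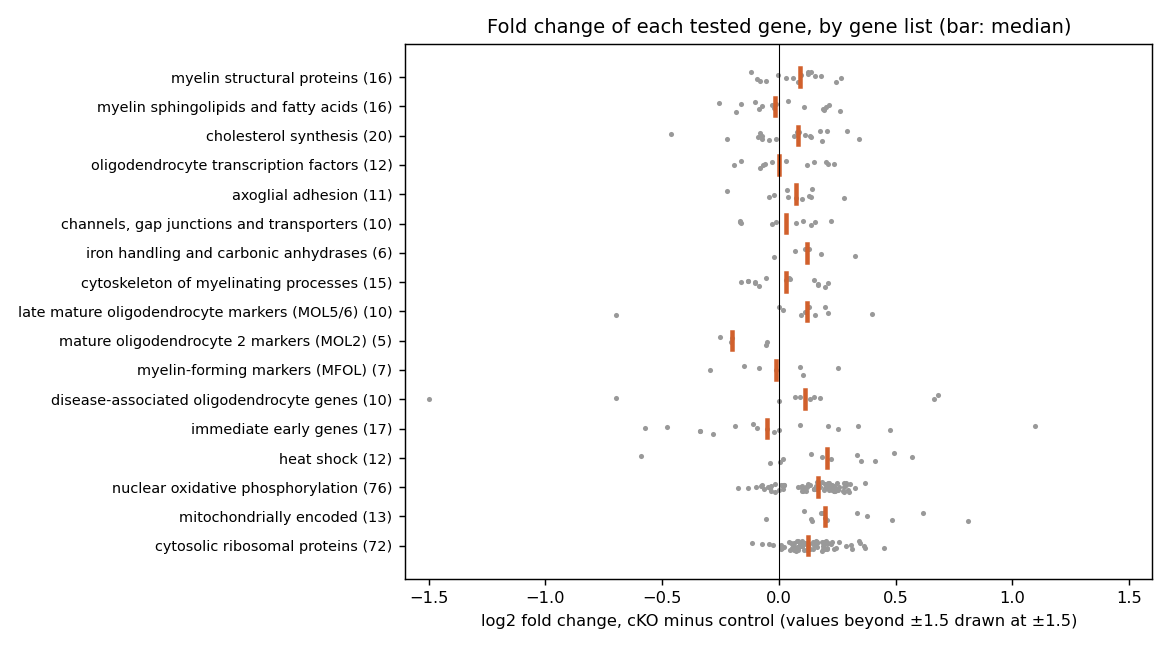
Log2 fold change of cKO over control for each tested gene of the lists in mature oligodendrocytes, with the median of each list. Medians of the oligodendrocyte lists lie between -0.20 and 0.12, and those of heat shock, oxidative phosphorylation and mitochondrially encoded genes between 0.17 and 0.20.

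Beyond the lists, 215 genes whose mean log2 CPM was 5 or more had no overlap between the groups, 143 above and 72 below, which is 4.77% of the 4511 such genes beside 7.01% of all genes tested, and the 10 of each direction with the smallest unadjusted p are described as values, since none was called. Among the higher ones, Dcaf17, a substrate receptor of a ubiquitin ligase, was at 146, 116 and 101 CPM in control, 243, 172 and 166 in cKO and 139 in DKO (log2 0.69 ± 0.20, edgeR adjusted p = 1.00). In the Enpp6/Bmp4-positive gate Dcaf17 was at 220, 189 and 144 CPM in control and 387, 256 and 243 in cKO libraries. Its log2 there was 0.68, against 0.26 in endothelial cells and -0.26 in OPCs, so its difference is not particular to the members. The amino acid transporter Slc38a2 was at 309, 273 and 286 against 505, 343 and 417 CPM, with 358 in DKO, and the glycine transporter Slc6a9 at 58.3, 79.2 and 70.7 against 80.5, 117 and 118, with 83.4 in DKO. The nuclear import gene Ipo7 was at 44.8, 40.5 and 47.8 against 61.4, 73.5 and 58.6 CPM and the lipid transporter Abca8b at 29.8, 28.7 and 31.8 against 38.8, 48.0 and 41.3. These 4 had log2 fold changes of 0.55, 0.59, 0.52 and 0.48. The others were Rab10os (0.59), Nkain2 (0.46), Bcl10 (0.45), Acadsb (0.40) and Bloc1s2 (0.39).

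Among the lower ones, the chondroitin sulfate proteoglycan gene Cspg5 had the largest difference, at 84.1, 102 and 74.6 CPM in control, 67.9, 25.4 and 44.2 in cKO and 43.4 in DKO (log2 -0.83 ± 0.29, edgeR adjusted p = 1.00). Over the alternatives its log2 ran from -1.25 without cKO library 1 to -0.49 with members of at most 2 hemoglobin UMIs. Only the fit with no filter on low counts called it (edgeR adjusted p 0.0298). Cspg5 is also expressed by astrocytes and OPCs, and its log2 was -0.09 in the Enpp6/Bmp4-positive gate, -0.12 in OPCs and -1.56 in endothelial cells. Dtna, which encodes a dystrobrevin, was at 119, 114 and 117 against 99.6, 87.6 and 72.7 CPM, with 75.5 in DKO (log2 -0.42), and the potassium channel gene Kcna2 at 56.6, 51.1 and 49.0 against 42.6, 41.4 and 37.0, with 61.2 in DKO (log2 -0.37). Mvk was among the 10 as well, beside Slc24a5 (-0.47), Ppp1r37 (-0.46), Sfswap (-0.44), Rhoc (-0.43), Spns1 (-0.41) and Mir99ahg (-0.39). In edgeR's tests of the difference in cKO effect between gates, none of these 20 genes of both directions was called.

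RNA of other cell types was present in the members and differed between libraries. Neuroblast markers summed to 102 to 284 CPM in control, 21 to 128 in cKO and 104 in DKO, with 9 of 9 lower in cKO (median log2 -0.88). Dividing precursor markers summed to 40 to 216 CPM in control and 9 to 77 in cKO (6 of 6 lower, median -1.19), and microglial markers to 22 to 56 and 13 to 26 CPM (8 of 8 tested lower, median -1.08). Blood genes summed to 168 to 390 CPM in control, 54 to 2436 in cKO and 1039 in DKO, where cKO library 3 was the high one. Astrocyte and stem cell markers, the largest such sum in control, were at 853 to 948 CPM in control, 508 to 968 in cKO and 726 in DKO, and neuronal markers at 125 to 538, 57 to 624 and 283. Their part in the differences of Thbs4, Agt, Cspg5 and the hemoglobin genes was not tested. Ependymal markers summed to 100 to 169 CPM in control and 77 to 229 in cKO, endothelial markers to 15 to 28 and 13 to 26, and mural markers to 17 to 21 and 8 to 84. OPC markers stood at 104 to 142 CPM in control and 82 to 112 in cKO. No list named here had a marker at 0 in every library, while 7 of 10 microglial and 4 of 9 neuroblast markers were at 0 in at least 1 library.

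Whether a difference between cKO and control was larger or smaller in mature oligodendrocytes than in another gate was tested as a difference of effects between gates, in 1 edgeR fit with a term for each library. Against the Enpp6/Bmp4-positive gate, 3 of 13788 genes were called (0.0218%), against OPCs 0 of 12201 (0%, with 341 at an unadjusted p under 0.05) and against endothelial cells 0 of 13537 (0%, with 314). DESeq2 was not run for these. Within the comparison gates themselves, edgeR called 0 of 13231, 10713 and 11880 genes in the Enpp6/Bmp4-positive, OPC and endothelial gates, with 298, 346 and 257 at an unadjusted p under 0.05.

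Aldoc, an aldolase gene that marks astrocytes, had the clearest difference of effects. In the members it was at 86.5, 125 and 73.7 CPM in control and 83.3, 32.0 and 71.1 in cKO, and in the Enpp6/Bmp4-positive gate at 39.4, 49.5 and 32.9 and 68.2, 34.8 and 53.6. In the members, cKO libraries 2 and 3 lay below every control library, whereas in the other gate cKO libraries 1 and 3 lay above every control library, a difference of effects of -0.93 ± 0.12 (log2, SE, edgeR adjusted p 6.46e-04). Slc1a2, the astrocyte glutamate transporter, was at 289, 217 and 267 against 262, 194 and 250.2 CPM in members and 144, 73.8 and 110.3 against 181, 121 and 173 in the other gate (-0.70 ± 0.12, edgeR adjusted p 0.0403). Tmsb10, a thymosin gene high in neuroblasts, was at 49.1, 230.2 and 154 against 55.4, 127 and 139.5 and 67.6, 258 and 179 against 105, 276 and 221 CPM (-0.62 ± 0.11, edgeR adjusted p 0.0487). Aldoc was called with any 1 library left out (adjusted p of at most 0.0232). Slc1a2 lost its call without cKO library 1 (adjusted p 0.368), 2 (0.154) or 3 (0.128) or the DKO library (0.0890), and Tmsb10 without control library 2 (0.241) or 3 (0.0528), cKO library 1 (0.465) or 2 (0.253) or the DKO library (0.0890). Against OPCs and endothelial cells none of the 3 was called (edgeR adjusted p = 1.00 for each). There the differences of Aldoc were 0.21 ± 0.71 and 0.35 ± 0.55 and those of Slc1a2 0.59 ± 0.59 and 0.62 ± 0.72, all smaller than or near their SE, and without control library 2 the OPC differences were -0.49 (Aldoc) and 0.019 (Slc1a2), while those of Tmsb10 were -0.51 ± 0.21 and -0.71 ± 0.22. As single libraries were left out, the endothelial differences ran from 0.055 to 0.83 for Aldoc and from 0.13 to 1.07 for Slc1a2. In the fits against the Enpp6/Bmp4-positive gate that lost the call, the differences were -0.67 to -0.74 for Slc1a2 and -0.54 to -0.64 for Tmsb10. Tmsb10 was also high in endothelial-gated cells, at 604 to 2426 CPM over the 7 libraries. The part of RNA from astrocytes, neuroblasts and endothelial cells in these differences was not tested.

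In the Prdm16-Vcam1 DKO library, the members' values are described without a test. Of 4511 genes whose mean log2 CPM was 5 or more, 1140 (25.3%) lay outside the range of the other 6 libraries, while each of those lay outside the range of its own other 6 in 11.3% (control library 3) to 46.5% (control library 2), so the DKO library did not stand apart by this count. The genes furthest above were Sccpdh (249 CPM against 66.1 to 95.5 in the others), the chemokine gene Cxcl12 (156 against 13.8 to 60.2), Rnpc3 (57.7 against 27.3 to 33.9), mt-Nd4l, Itih3 and Eif3j1. The genes furthest below were Tmem117 (5.0 against 28.4 to 47.1 CPM), the transcription factor gene Insm1 (19.0 against 41.3 to 63.5), the sulfurtransferase gene Tst (23.9 against 48.0 to 55.6), Uap1, Nudt16 and the actin-bundling Fscn1. Sccpdh lay at 76.1 CPM on average in control and 73.9 in cKO, so that the DKO value was set apart from both groups alike.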

How the data were processed

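Single cells of the V-SVZ were profiled by 10x Genomics 3′ RNA sequencing in 3 control, 3 Prdm16 cKO and 1 DKO libraries. The authors deposited raw UMI counts per gene and barcode, made with Cell Ranger (6.0.1 or 6.1.1 per the file headers, 6.1.1 per the submitters' processing notes) on mm10, without normalization. Cells with 500 to 7000 genes and at most 10% mitochondrial counts were kept. The members and gene lists were chosen with earlier results of these data known.

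Counts were summed over the members of each library and compared with edgeR 4.0.16 in R 4.3.3 (expression filter, TMM, robust quasi-likelihood test, Benjamini-Hochberg adjustment over all tested genes, threshold 0.05). All 7 libraries entered 1 fit, which takes the spread of the unreplicated DKO group to be that of the others. SE was derived from the fold change and its F statistic. Differences of effects between gates used 2 sums per library and a library term. Comparison gates were Enpp6+Bmp4 of at least 2 with Bcas1 of at least 2, Pdgfra of at least 2 with Olig1 (OPC), and Cldn5 of at least 3 with Flt1 (endothelial). The OPC, endothelial and microglia gates also allowed at most 1 UMI of Mog, Mag and Opalin together. A microglia gate (Csf1r of at least 3) and 2 alternatives, a limit of 2 hemoglobin UMIs and an Enpp6+Bmp4 limit of under 1 per 10000 UMIs, were chosen after the data were seen. Shares were compared by exact two-sided permutation tests. Exact binomial intervals were computed in scipy 1.17.1 and cover counting error only. Scrublet in scanpy 1.11.5 was run with an expected rate of 0.08, and where its threshold failed (control library 1) the median of the others was used.

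Named genes were the gate and target genes, from each list the 3 most abundant and the 3 with the smallest unadjusted p, the 20 genes without overlap given above, the 12 furthest DKO genes, the 20 highest and 20 most enriched genes, and the most variable genes. Where a list's genes are described in part, the choice is from these. On simulated sums of these libraries, edgeR recovered 164 of 200 genes changed by 1 on the log2 scale with 7 false calls among 13127, 200 of 200 changed by 2 with 12 false calls among 13101, and called 0 with none changed. For differences of effects it recovered 199 of 200 changed by 2, with 20 false calls among 13817. All changed genes were drawn from those whose mean log2 CPM was 5 or more, so the recovery rates cover abundant genes only. The spread of each simulated gene was taken from a trend over expression levels. In the measured sums, however, edgeR did not call Agt at a log2 fold change of 3.43 or Prm1 at 8.27, where Prm1 had a mean log2 CPM of only 2.02. The simulated rates therefore do not carry over to every tested gene, and large changes could be missed. Of 32285 gene identifiers, 32158 (99.6%) were found in GENCODE vM21 of GRCm38, the source of the coordinates. Some genes of the lists are not reported here by name.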

Additional observations from a re-analysis of the deposited data

Results flagged for a closer look

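Of the results tested as a difference between cell gates, 3 genes had a cKO effect in mature oligodendrocytes that differed from that in Enpp6/Bmp4-positive cells by edgeR's test of the difference itself. Aldoc differed by -0.93 on the log2 scale, Slc1a2 by -0.70 and Tmsb10 by -0.62. Against OPCs and endothelial cells none of them was called, and the differences of Aldoc (0.21 and 0.35) and Slc1a2 (0.59 and 0.62) were positive, but against OPCs they were -0.49 and 0.019 without control library 2. With single libraries left out, the endothelial differences ran from 0.055 to 0.83 (Aldoc) and from 0.13 to 1.07 (Slc1a2). As single libraries were left out, Aldoc kept its call against Enpp6/Bmp4-positive cells, while Slc1a2 lost it without any 1 cKO library or the DKO library, and Tmsb10 without control library 2 or 3, cKO library 1 or 2 or the DKO library, with differences of -0.67 to -0.74 and -0.54 to -0.64 in those fits. In the members, the libraries of cKO and control overlapped for each of these genes. Astrocyte and stem cell markers summed to 853 to 948 CPM in the control members and 508 to 968 CPM in the cKO members, and the part of such RNA in the 3 differences was not tested. The gap test for a sample far from its group needs at least 4 samples a group and was not run.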

How the results depend on the processing

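Counts of genes called between cKO and control were 0 as reported, 1 with DESeq2, 7 with no filter on low counts, 2 with the Cell Ranger version as a block, 1 with the libraries of Cell Ranger 6.0.1 alone, and 0 to 2 with single libraries left out. Agt was among the calls of DESeq2, the unfiltered fit and the version block, and Prm1 among those of the last 2. The mitochondrial limit of 5%, the leaving out of doublets, the other gates, equal numbers of members and other library totals gave 0. With the replicate number as a replicate block, 2 genes were called (Agt and Hba-a2), and the paired difference of the member share was -0.52 percentage points (exact permutation p = 0.5). Equal numbers were not shown to pair libraries: their deviations correlated at 0.45, -0.15 and 0.35 over 4511 genes. The share difference ran from -2.28 to 0.572 with single libraries left out, and was positive without control library 1 (0.443), cKO library 2 (0.572) or cKO library 3 (0.129). Subtype differences turned sign for Klk6 (0.166) and Ptgds (-0.209) at 3000 UMIs, Hopx (-1.52) unthinned, and S100b unthinned (7.92) and at 3000 UMIs (3.79). Differences of effects called 1 to 15 genes against the Enpp6/Bmp4-positive gate, 0 to 13 against OPCs (13 without cKO library 3) and 0 against endothelial cells as single libraries were left out. The cause of these shifts was not tested. Of 167 named genes, 67 changed sign in at least 1 of 21 settings, and 100 in none. Exact tests that cannot go below 0.1 could not pass 0.05 for a difference in shares of any size, and cKO library 2 held 37 members.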
